A study of Mus musculus with 2 samples.

Results

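Centromere, kinetochore and spindle checkpoint genes were examined in mouse mammary basal cells grown in 3D culture with or without TNF-α. The members were the genes with a name of the form Cenp followed by a letter and, at most, 1 digit, and 23 genes listed by name, from Ndc80 to Mki67. The rule found 42 of the 49492 genes in the deposited table, 19 of them by the Cenp name, and all 42 passed the minimum of 10 counts summed over both libraries. The starting cells were wild type primary epithelial cells, basal by their sort from the mammary glands of adult female mice. Both cultures grew in matrix gel with EGF, insulin, transferrin and selenium in the medium. In another experiment of the paper that reported the data, control colonies from such sorted cells were mostly luminal by surface markers. The paper also reported a larger basal share with TNF-α, so the cultures here need not be basal cells alone. The control library came from untreated cells and the TNF-α library from cells given recombinant mouse TNF-α at 10 ng/mL for 10 days. How many mice were pooled is not given in the sources used here. Each condition had 1 library, which leaves every difference in these counts without a replicate check, and no p-value is given. The paper separately reported replicated RT-qPCR in organoids formed with TNF-α for Cdk1, Ccnb1, Cenpe, Ndc80, Sgo1 and Sgo2a. Its legend includes a mark for no significance, and the text does not say which genes carry it. The paper also reported more cells in mitosis with TNF-α.

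The centromere is the chromatin that carries the histone CENP-A, and the kinetochore is the protein machine built on it in mitosis. Its inner layer, the constitutive centromere associated network (CCAN), holds the centromere, and its outer layer, the KMN network, grips spindle microtubules. The spindle checkpoint delays anaphase until every kinetochore is attached, by holding back CDC20, the activator of the anaphase-promoting complex (APC/C). Many of these genes are transcribed mainly in G2 and mitosis, so in a bulk culture their transcripts are widely read as a measure of dividing cells. In bulk RNA, more dividing cells and more transcript per dividing cell cannot be told apart.

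Promoters are shown for 4 members because they span the range of the ratios and because promoters of such genes are known for a cell cycle homology region (CHR) beside CCAAT boxes. The windows are those of RefSeq on GRCm38.p6, 300 bases from 250 before to 50 after the annotated start, on the strand of the gene. Capitals mark matches to the motifs searched on both strands. Cenpe (chr3:135212313-135212612, plus strand) and Ndc80 (chr17:71526808-71527107, minus strand) encode proteins that grip microtubules. Ttk (chr9:83834439-83834738, plus strand) and Cenpv (chr11:62539212-62539511, minus strand) had the highest and the lowest ratio among members with at least 200 counts.
Cenpe: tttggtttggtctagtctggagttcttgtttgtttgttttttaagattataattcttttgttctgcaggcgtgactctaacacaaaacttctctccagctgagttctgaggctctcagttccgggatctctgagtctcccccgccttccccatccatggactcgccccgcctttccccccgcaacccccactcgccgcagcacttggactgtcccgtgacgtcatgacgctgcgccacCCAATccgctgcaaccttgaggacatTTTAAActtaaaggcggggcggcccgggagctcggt
Ndc80: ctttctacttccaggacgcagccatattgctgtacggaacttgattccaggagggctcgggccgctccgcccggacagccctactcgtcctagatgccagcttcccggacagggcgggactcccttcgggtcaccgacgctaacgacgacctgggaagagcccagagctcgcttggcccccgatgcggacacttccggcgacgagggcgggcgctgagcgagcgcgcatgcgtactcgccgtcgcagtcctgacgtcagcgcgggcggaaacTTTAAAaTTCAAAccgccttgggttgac
Ttk: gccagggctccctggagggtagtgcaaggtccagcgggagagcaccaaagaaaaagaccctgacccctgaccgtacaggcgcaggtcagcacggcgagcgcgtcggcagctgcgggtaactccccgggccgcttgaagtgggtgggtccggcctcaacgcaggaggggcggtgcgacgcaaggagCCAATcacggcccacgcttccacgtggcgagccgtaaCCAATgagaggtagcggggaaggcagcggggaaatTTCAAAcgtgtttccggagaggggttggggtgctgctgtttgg
Cenpv: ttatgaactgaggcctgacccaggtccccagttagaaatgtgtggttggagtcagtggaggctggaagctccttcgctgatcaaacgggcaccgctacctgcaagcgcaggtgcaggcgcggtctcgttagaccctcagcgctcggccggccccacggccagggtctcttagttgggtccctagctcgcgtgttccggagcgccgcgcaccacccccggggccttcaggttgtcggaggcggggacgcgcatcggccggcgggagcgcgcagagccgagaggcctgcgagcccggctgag
The Cenpe window held a CCAAT box and a CHR match, the Ndc80 window 2 CHR matches, and the Ttk window 2 CCAAT boxes and a CHR match. The Cenpv window held 0 matches. A match describes the letters of this window and is not a binding site.

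The summed counts of the 42 genes were 96968 of 44462275 in the control library and 181909 of 53487087 in the TNF-α library. They made up 0.218% of the control counts (95% Wilson interval 0.217% to 0.219%) and 0.340% of the TNF-α counts (0.339% to 0.342%). Mki67 alone gave 26.2% of these counts in the control and 32.8% with TNF-α. With library sizes scaled by edgeR's TMM method and values given as CPM, the count of a gene scaled to a common library size, the sum was higher with TNF-α by 0.65 on the log2 scale (95% interval for counting error 0.64 to 0.66), and by 0.51 without Mki67 (0.50 to 0.53). Intervals here and below cover counting error only and treat reads as independent, which PCR copies of a molecule are not. They leave out differences between cultures, which 1 library per condition cannot show.

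As a group the genes stood higher in the TNF-α library, by moderate amounts. The median of the log2 ratios (TNF-α over control) was 0.71 over the 42 genes, with quartiles of 0.42 and 0.92, against a median of 0.0038 and quartiles of -0.29 and 0.31 over all 20771 genes compared. Of the 42 genes 39 lay above 0. More than 1.5-fold higher were 27 of the 42 (64.3%), against 15.5% of all genes compared, and 0 were more than 1.5-fold lower, against 13.7%. Among genes with at least 200 counts, which 40 members reached, the shares were 26 of 40 (65.0%) and 9.13%. The 1.5-fold cut was added because most members were known, from earlier results of these data, to lie under 2-fold. At 2-fold the contrast was smaller. There, 6 of 42 members (14.3%) were higher, against 8.56% of all genes, or 5 of 40 (12.5%) against 4.01% with at least 200 counts, and 0 were lower, against 6.62%. The 95% interval lay wholly above 0 for 38 of the 40 well counted members, against 34.3% of all such genes, and wholly below 0 for 2, against 33.9%. The 6 members past 2-fold were Cenpw, Ttk, Cdc20, Cenpl, Aurkb and Plk1. Only Cdc20 had a counting interval wholly past 2-fold (1.04 to 1.36 on the log2 scale). With counts halved the interval of Cdc20 (0.97 to 1.43) reached below 2-fold as well. Next to the 2-fold line lay Plk1 at 1.04 inside it and Ndc80 at 0.97 outside it.

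**Figure D1:**
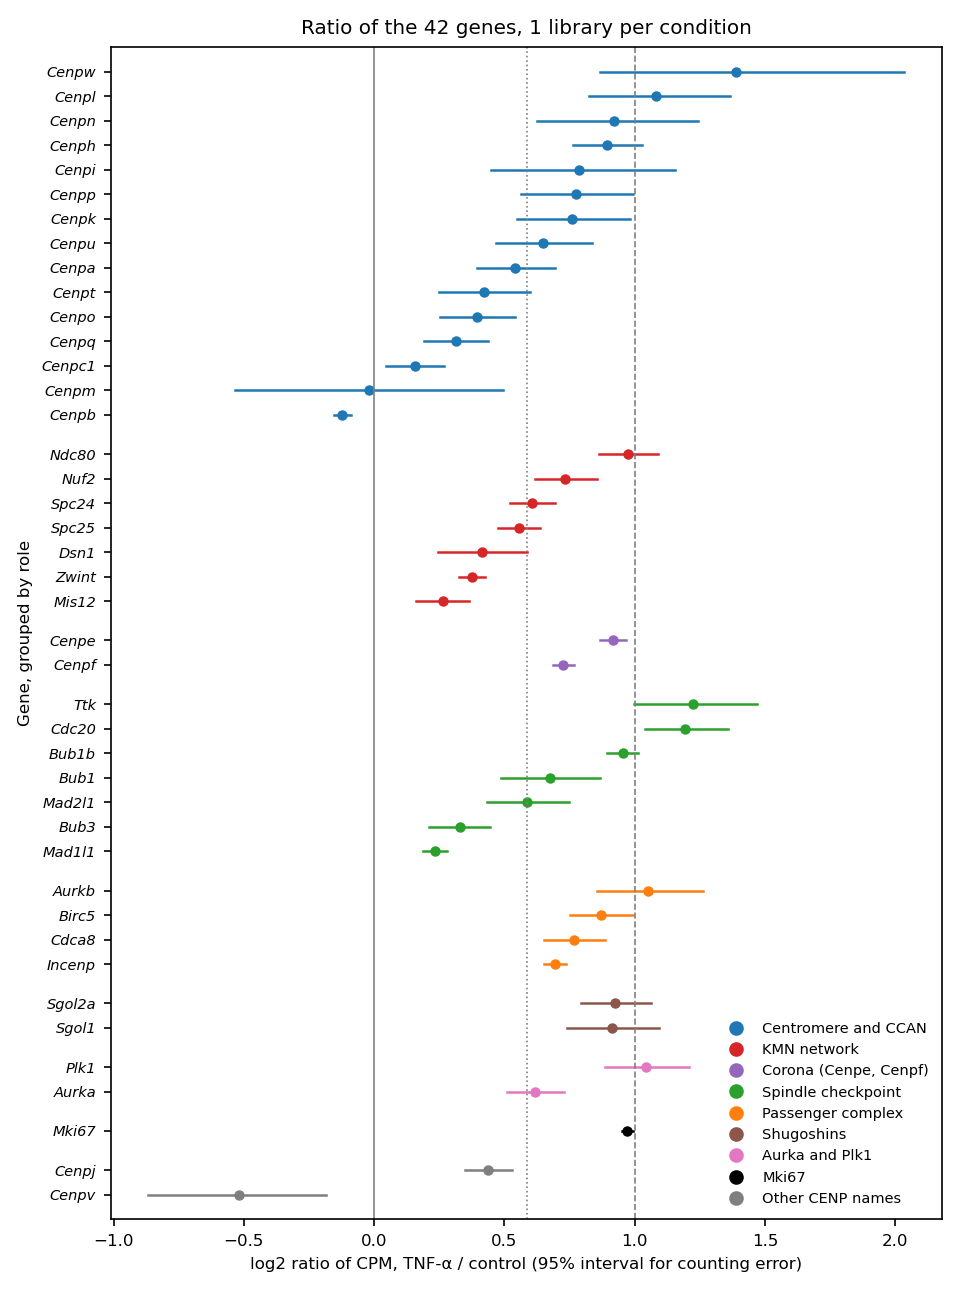
The log2 ratio of CPM between the TNF-α and control libraries (x axis) is plotted for each of the 42 genes (y axis), coloured by role, with lines for the 95% interval of counting error. Vertical lines mark no difference (solid), 1.5-fold (dotted) and 2-fold (dashed), and 39 of the 42 points lie above 0.

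Among the 15 genes of centromeric chromatin and the CCAN, the ratios ran from -0.12 for Cenpb to 1.39 for Cenpw. The median was 0.65, 8 genes were more than 1.5-fold higher, and 2 lay below 0. Cenpa encodes the histone that marks the centromere. It had 568 counts in the control and 991 with TNF-α, a log2 ratio of 0.54 (95% interval 0.39 to 0.69). Cenpc1 encodes CENP-C, which links that histone to the outer kinetochore. It had 1174 and 1566 counts, a ratio of 0.16 (0.05 to 0.27). So the ratio of the gene for the histone was above that of the gene for its main reader, though its counts were lower. Cenpb encodes a protein that binds a DNA motif of centromeric repeats. It had 14332 and 15762 counts, and its ratio of -0.12 (-0.16 to -0.09) was slightly below 0, but came to 0.0026 once GC content and length were corrected for.

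The CCAN is built of small subcomplexes, and their genes differed from each other. CENP-H, CENP-I and CENP-K form one of them. Cenph had 683 and 1520 counts, a log2 ratio of 0.89 (0.76 to 1.03). Cenpi was at 0.79 with 101 and 210 counts, and Cenpk at 0.76 with 265 and 539 counts. The same subcomplex holds CENP-M, whose gene Cenpm had 61 counts in the control and 72 with TNF-α, a ratio of -0.02 (-0.53 to 0.50). The counting interval of Cenpm spans 0 and lies below the point values of Cenph, Cenpi and Cenpk. It overlaps the interval of Cenpi (0.45 to 1.15). With counts halved the interval of Cenpm (-0.76 to 0.72) overlaps those of Cenph and Cenpk as well.

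CENP-L and CENP-N recognise the CENP-A nucleosome as a pair. Cenpl had 160 and 408 counts, a ratio of 1.08 (0.82 to 1.36), and Cenpn had 128 and 292 counts, a ratio of 0.92 (0.63 to 1.24). Both lay near 2-fold. Of the CENP-O, P, Q and U group, Cenpp had 268 and 550 counts, a ratio of 0.77, and Cenpu had 375 and 705, a ratio of 0.65. Cenpo had 647 and 1019 counts (0.39) and Cenpq 900 and 1340 counts (0.31), both under 1.5-fold. CENP-T and CENP-W carry histone folds and bind DNA together. Cenpt had 444 and 713 counts, a ratio of 0.42 (0.25 to 0.60). Cenpw had the highest ratio of all members, 1.39 (0.87 to 2.03), on 34 and 110 counts, the fewest control counts of any member. The intervals of Cenpt and Cenpw do not overlap as counted but do with counts halved (0.18 to 0.67 and 0.63 to 2.31).

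The 7 genes of the KMN network all lay above 0, with a median of 0.56, and 3 were more than 1.5-fold higher. The NDC80 complex is its microtubule-binding rod, in which NDC80 and NUF2 form the outer end and SPC24 and SPC25 the inner end. Ndc80 (chr17:71496100-71526857) had 897 counts in the control and 2110 with TNF-α, a log2 ratio of 0.97. Nuf2 had 884 and 1762 counts, a ratio of 0.73 (0.62 to 0.85). Spc24 had 1660 and 3029 counts, a ratio of 0.61 (0.52 to 0.70), and Spc25 had 1974 and 3477, a ratio of 0.56 (0.48 to 0.64). The outer pair therefore stood higher than the inner pair in point value, and the interval of Ndc80 (0.86 to 1.09) does not overlap those of Spc24 and Spc25. The remaining KMN members gave smaller ratios. Dsn1 and Mis12, subunits of the complex that anchors the rod, were at 0.41 (457 and 730 counts) and 0.26 (1333 and 1916 counts). Zwint, a partner of the scaffold KNL1, was at 0.38 with 5377 and 8354 counts.

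Cenpe and Cenpf encode very large proteins of the fibrous corona, the outermost layer of an unattached kinetochore. Cenpe, a kinesin motor that moves chromosomes to the spindle equator, had 4798 and 10840 counts, or 108 and 203 CPM. Cenpf, which binds dynein regulators, had 7964 and 15772 counts, or 179 and 296 CPM. Its log2 ratio of 0.73 (0.69 to 0.77) was below that of Cenpe, 0.92 (0.87 to 0.97), with no overlap of the counting intervals. With the GC and length correction the ratio of Cenpf was 0.80.

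Of the 7 spindle checkpoint genes, 5 were more than 1.5-fold higher and all lay above 0, with a median of 0.67. Ttk encodes the MPS1 kinase that starts checkpoint signalling at the kinetochore. Its locus is chr9:83834689-83872389 in GRCm38, and it had 201 counts in the control and 565 with TNF-α, a log2 ratio of 1.22 (0.997 to 1.47). Cdc20, the target of the checkpoint, is annotated at chr4:118432901-118437352. It had 442 and 1214 counts, a ratio of 1.19 (1.04 to 1.36). These genes, at the start and the end of the signal, had the highest ratios of the 7. Bub1b, which encodes BUBR1, a part of the complex that inhibits CDC20, had 3251 and 7540 counts, a ratio of 0.95 (0.89 to 1.01). Its relative Bub1, a kinetochore kinase, had 354 and 677 counts, a ratio of 0.67 (0.49 to 0.87). Mad2l1, which encodes the MAD2 protein that captures CDC20, had 509 and 917 counts, and its ratio of 0.59 (0.43 to 0.75) was just past 1.5-fold. Under scaling by total counts or upper quartile Mad2l1 was at 0.581 or 0.579, short of 1.5-fold, which leaves 4 of the 7 genes past it. Bub3, a binding partner of both BUB1 and BUBR1, was at 0.33 with 985 and 1481 counts. Mad1l1, which recruits MAD2 to kinetochores, was at 0.23 with 6686 and 9419 counts, or 0.35 with the GC and length correction.

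The 4 genes of the chromosomal passenger complex, which corrects faulty attachments, were all more than 1.5-fold higher, with a median of 0.82. Aurkb, its kinase, had 277 and 690 counts, a log2 ratio of 1.05 (0.85 to 1.26). Birc5, which encodes survivin, had 836 and 1832 counts (0.87), and Cdca8, which encodes borealin, had 881 and 1797 counts (0.77). Incenp, the scaffold that joins the kinase to the other subunits, had 7260 and 14063 counts, a ratio of 0.69 (0.65 to 0.74). The kinase thus had the highest point value and the scaffold the lowest, and these 2 intervals do not overlap. The shugoshins guard the cohesion of sister chromatids at centromeres. Sgol1 and Sgol2a, now named Sgo1 and Sgo2a, had nearly the same ratios, 0.91 and 0.93, from 386 and 872 counts and from 650 and 1480 counts.

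Plk1 and Aurka encode mitotic kinases that also act at spindle poles. Plk1 had 440 and 1087 counts, a log2 ratio of 1.04 (0.88 to 1.21). Aurka had 1071 and 1970 counts, a ratio of 0.62 (0.51 to 0.73). The ratio of Aurka was below that of its relative Aurkb, and their intervals do not overlap as counted but do with counts halved (0.466 to 0.774 and 0.768 to 1.352).

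Cenpj and Cenpv carry the CENP name and were listed apart from the roles above. Cenpj encodes a centriole protein and had 1642 and 2663 counts, a ratio of 0.44 (0.35 to 0.53). Cenpv had 161 and 134 counts, and its ratio of -0.52 (-0.87 to -0.18) was the lowest of the 42.

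**Figure D2:**
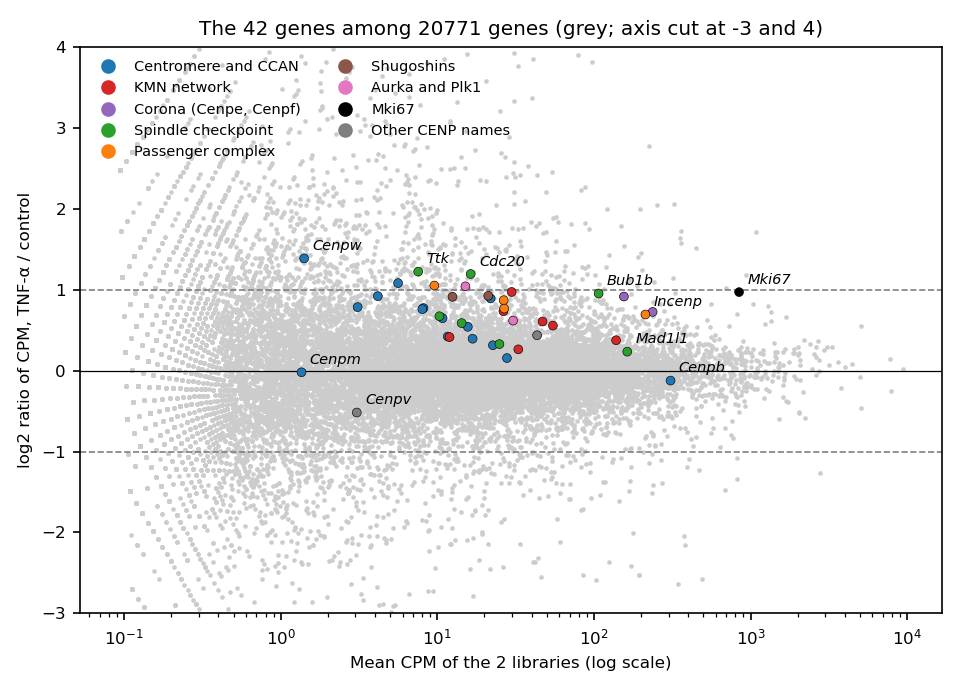
The log2 ratio, TNF-α over control (y axis), is plotted against the mean CPM of the 2 libraries on a log scale (x axis) for the genes compared, in grey, and the 42 members, coloured by role. Members lie mostly between 0 and 1.4 at all their levels of expression, from Cenpm and Cenpw near 1 CPM to Mki67, the member furthest right. Some grey points lie further right, and the grey points fan out at low CPM.

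Mki67 encodes Ki-67, the standard marker of cycling cells, which coats mitotic chromosomes. Mki67 (chr7:135689784-135716361) had 25452 counts in the control and 59721 with TNF-α, or 571 and 1119 CPM, a log2 ratio of 0.97 (0.95 to 0.99). Its counts allow each member's ratio to be set against that of the marker. Relative to Mki67, the counting interval was wholly above 0 for 2 genes, spanned 0 for 14 and was wholly below 0 for 25. The 2 genes above were Ttk, by 0.25 (0.02 to 0.49), and Cdc20, by 0.22 (0.07 to 0.38). With counts halved both intervals spanned 0 (-0.08 to 0.58 for Ttk and -0.0035 to 0.44 for Cdc20), and with the GC and length correction that of Ttk did (-0.03 to 0.44). Ndc80 and Bub1b differed from Mki67 by 0.0022 and -0.02. With the GC and length correction Ndc80 was at -0.11 (-0.23 to -0.0003), wholly below Mki67. The interval of Bub1b still spanned 0 under that correction (-0.11 to 0.02). The lower 25 were led by Cenpv, Cenpb and Cenpm, at -1.49, -1.09 and -0.99 relative to Mki67, and among them Mad1l1 was at -0.74 and Zwint at -0.59.

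Within complexes the levels per length were unequal, compared here in RPKM, the CPM divided by the summed exon length in kilobases. Summed exon length counts every annotated exon, so a gene with long exons that these cells do not use reads too low. In the NDC80 complex, Spc24 and Spc25 were at 14.5 and 13.9 RPKM in the control, Ndc80 at 9.14 and Nuf2 at 3.13. With TNF-α the order was the same, at 22.1, 20.4, 17.97 and 5.21 RPKM. The ratio of Ndc80 to Spc25 was 0.658 in the control and 0.879 with TNF-α. In the passenger complex, Incenp was at 50.6 and 81.9 RPKM and Aurkb at 2.11 and 4.39, a ratio of Incenp to Aurkb of 24.0 in the control and 18.7 with TNF-α. In the checkpoint, Mad1l1 was 44.8 times as high as Ttk in the control and 22.5 times with TNF-α. Bub1b was at 17.1 and 33.1 RPKM and Bub1 at 1.82 and 2.91.

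Over all 42 genes the order of levels changed little, with a Spearman correlation of 0.984 between the RPKM values of the libraries, which share the gene lengths. Cenpb was the highest in the control, at 65.8 RPKM, followed by Mki67 at 56.8 and Incenp at 50.6. With TNF-α, Mki67 was first at 111 RPKM, Incenp next at 81.9 and then Cenpb at 60.5. Cenpw was the lowest in both, at 0.181 and 0.490 RPKM. With 1 library per condition, the spread that would tell neighbours in this order apart is unknown. The ratio was only weakly related to level and to length across the 42 genes, with Spearman correlations of -0.21 with mean CPM and 0.03 with summed exon length, and -0.29 with GC content.

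**Figure D3:**
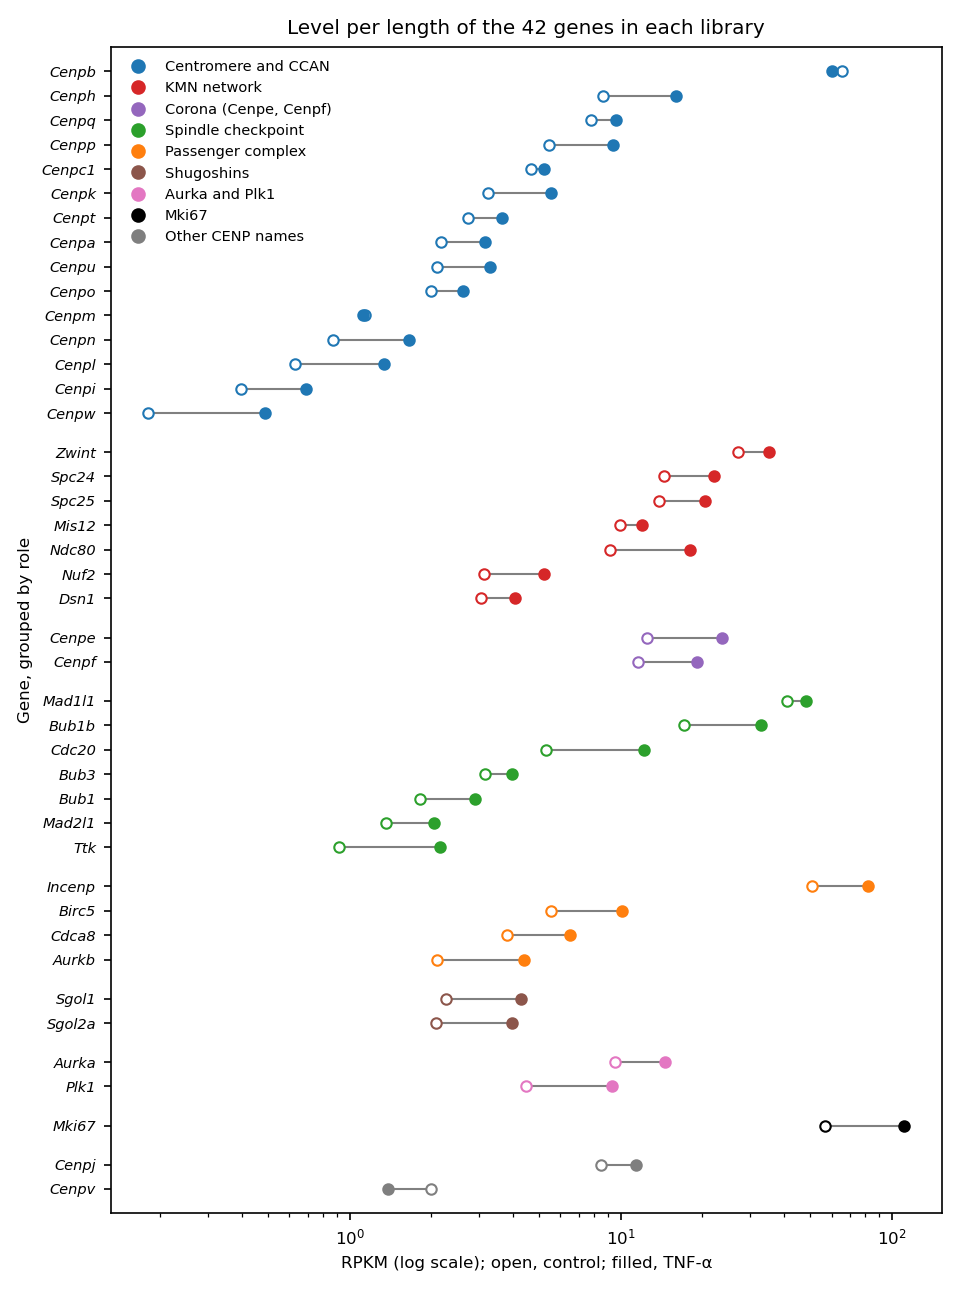
The RPKM of each of the 42 genes (y axis, grouped by role) is plotted on a log scale (x axis), open for the control and filled for the TNF-α library. Mki67, Cenpb and Incenp sit at the right in both libraries, and the filled point lies left of the open point for Cenpb, Cenpv and, only slightly, Cenpm (1.14 and 1.12 RPKM).

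A G2/M list in wide use for scoring the cell cycle holds 13 of the 42 members, among them Cenpe, Ndc80 and Mki67. Their median log2 ratio was 0.87, all 13 lay above 0 and 12 were more than 1.5-fold higher, Cenpa being the exception. The other 29 members had a median of 0.59, and 15 were more than 1.5-fold higher. The members with the smallest ratios, Cenpv, Cenpb, Cenpm, Cenpc1 and Mad1l1, were all among these 29, and so was Cenpw with the highest. The difference was not tested.

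Promoter windows were found for 39 members, and 44 member windows were set beside 32851 windows of the same length in the table. The CHR was searched as TTTGAA or else as TTTAAA. It occurred in 47.7% of member windows and in 27.6% of all windows. The CCAAT box occurred in 70.5% and 37.4%, and both motifs together in 40.9% and 10.7%. E2F motifs, searched as TTTCCCGC and also as TTTGGCGC or as TTTCGCGC, occurred in 9.09% and 1.84%. A window may hold overlapping matches. The 17 genes with both a CHR and a CCAAT box had a median log2 ratio of 0.92, and the 22 others one of 0.62. The 4 genes with an E2F motif, Cenpl, Dsn1, Cenpm and Cenpb, had a median of 0.20, and the 35 without one of 0.73. Of the 5 highest members with a window, Cenpw, Ttk, Cdc20, Cenpl and Plk1, all 5 held both motifs. Cenpc1, Bub3 and Zwint held both motifs as well, with ratios of 0.16, 0.33 and 0.38. These shares and medians are descriptions, with no test.

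Genes of the same machinery that the rule does not name were taken from lists fixed with the members. Of 14 other kinetochore genes compared, 12 lay above 0, 7 were more than 1.5-fold higher and 2 more than 2-fold, with a median of 0.56. Ska1, of the SKA complex that follows shrinking microtubules, was highest at 1.25 with 122 and 351 counts, and Bod1 was lowest at -0.32 with 1950 and 1876 counts. Nsl1, a subunit of the MIS12 complex beside Dsn1 and Mis12, was past 2-fold at 1.06 with 88 and 222 counts. The 4 genes that load CENP-A onto chromatin had a median of 0.81, from 0.04 for Hjurp, the CENP-A chaperone (9766 and 11981 counts), to 1.48 for Oip5 on 12 and 44 counts. Of 6 genes that silence the checkpoint or correct attachments, 4 were more than 1.5-fold higher. Gsg2, the haspin kinase that helps place the passenger complex, was highest at 1.09 with 125 and 321 counts. Ppp2r5a, a phosphatase subunit, was lowest at 0.04.

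The machinery of anaphase gave smaller ratios. The 18 genes of the APC/C, its ubiquitin enzymes, its inhibitor and securin had a median of 0.12. More than 1.5-fold higher were 2 of the 18, against 15.5% of all genes compared. Fbxo5, which encodes the APC/C inhibitor EMI1, was the highest at 1.38 (1.12 to 1.67) with 143 and 449 counts. Anapc11 was lowest at -0.26. Ube2c, the APC/C enzyme that is itself a mitotic gene, had 1015 and 1290 counts, a ratio of 0.09 (-0.03 to 0.21). Pttg1, which encodes securin, had 345 and 478 counts, a ratio of 0.21 (0.01 to 0.41), while its protease partner separase, Espl1, was at 0.66 (0.49 to 0.83). Ube2c, Pttg1 and Espl1, and Esco2 among the cohesin genes, were named after their values were seen.

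Cohesin and condensin shape the chromosomes that kinetochores pull. The 13 cohesin genes had a median of 0.18. More than 1.5-fold higher were 2 of the 13, against 15.5% of all genes compared. These were Cdca5 (0.82), which encodes sororin, and Esco2 (0.74), an acetyltransferase of S phase. Stag2 was lowest at -0.14. The 8 condensin genes had a median of 0.72, and 5 were more than 1.5-fold higher, from 0.07 for Ncaph2 to 1.03 for Ncapg. Kif2c counts in both the attachment list and the kinesins. Set beside parts of the cell cycle most like it, the 42 genes had a lower median than 12 mitotic kinesins (0.90, from 0.40 for Kifc1 to 1.13 for Kif4) and 8 cyclin and CDK genes of S, G2 and M (0.91, from 0.18 for Cdk2 to 1.32 for Cdk1). They had a higher one than 45 genes of replication licensing and the fork (0.56, from -0.06 for Orc4 to 1.15 for Ticrr). Past 2-fold in these lists were also Kif23 at 1.004, Ccnb1 at 1.19 and Pole at 1.05. The differences between lists were not tested.

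**Figure D4:**
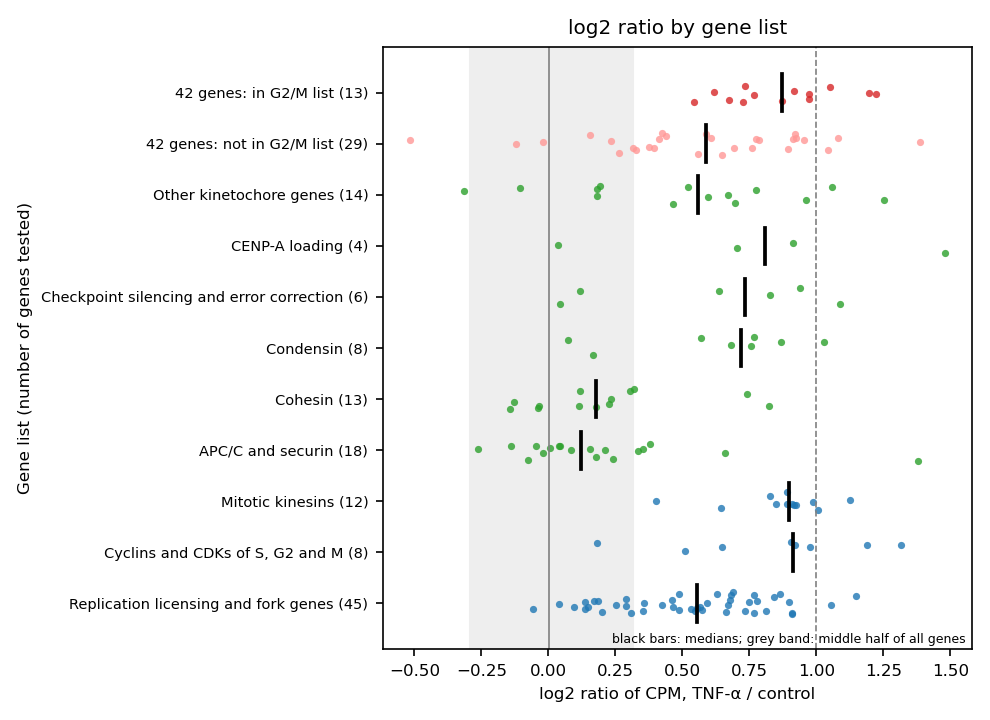
The log2 ratio, TNF-α over control (x axis), is plotted for each gene of 11 lists (y axis, with the number of genes): red, the 42 members by G2/M list, green, other genes of the machinery, blue, other cell cycle lists. Black bars mark medians, the grey band the range between the quartiles of all genes compared, the grey line their median and the dashed line 2-fold. The medians of the APC/C and cohesin lists lie inside the band, and those of the other lists lie outside it.

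Some measured features of the libraries moved beside these ratios, and their part in the results was not tested. The 9 basal markers summed to 12177 CPM in the control and 11345 CPM with TNF-α, with Krt5, Krt14 and Trp63 all present in both. Of the 9, 5 lay above 0, the median was 0.03, and Oxtr was the lowest at -1.19. The 11 luminal markers summed to 4479 and 3604 CPM, with 10 of 11 below 0 in log2 ratio and 7 past 1.5-fold in that direction. Among 12 leukocyte markers, 7 reached 10 counts and Cd3e was at 0 in both libraries, and the sum was 8.95 CPM in the control and 7.18 CPM with TNF-α. For 15 reference genes the median log2 ratio was 0.11, and 11 lay above 0. B2m was the highest at 2.27, Pgk1 was also past 2-fold at 1.43, and Polr2a was the lowest at -0.28. More than 1.5-fold higher were 3 of the 15. The 6 fibroblast markers summed to 499 and 486 CPM, and the 5 endothelial markers to 7.34 and 6.93 CPM. For 11 members an exon overlaps that of another gene, on the opposite strand for 10 of them, and whether counting used the strand is not given in the sources used here. The longest overlaps were 2455 bases between Sgol2a and Kctd18, 1380 bases between Cenpo and Adcy3 and 1069 bases between Cenpu and Primpol, whose partners had ratios of 0.38, 0.29 and -0.11. Without the 11 genes the median of the other 31 members was 0.73, and 22 of them were more than 1.5-fold higher.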

How the data were processed

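RNA-seq libraries of 1 control and 1 TNF-α culture grown from mouse mammary basal cells were compared. The authors deposited raw read counts per gene with exon coordinates, strand and summed exon length. Per the labels the build was GRCm38 (mm10), and the aligner, counter and read filters are not given in the sources used here. Library totals were 44462275 and 53487087 counts. After scaling, 10 counts were worth 0.224 and 0.187 CPM.

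Library sizes were scaled by TMM (edgeR 4.0.16, R 4.3.3) from genes with at least 10 counts, and log2 ratios of CPM used a prior count of 2. Intervals are 95% Clopper-Pearson intervals, computed on each gene's TNF-α share of its counts and turned into ratios, and those relative to Mki67 are normal approximations. With 1 library per group no quasi-likelihood test of edgeR can be fitted, so genes were described by folds of 1.5 and 2 without a test. The members, gene lists, tests and the 1.5-fold cut were chosen with earlier results of these data known. Named genes were all members, and of the other lists the highest, the lowest and those past 2-fold with at least 200 counts. Outside this rule, Krt5, Krt14, Trp63 and Cd3e were named as defining markers, and Ube2c, Pttg1, Espl1 and Esco2 after their values were seen. Promoters came from RefSeq. Python 3.11.15, pandas 2.3.3, scipy 1.17.1, statsmodels 0.14.6, matplotlib 3.10.9 and DESeq2 1.42.0 were used. Alternatives were other library scalings (total counts, upper quartile, DESeq2 size factors), filters and prior counts, halved counts, removal of mitochondrial and ribosomal RNA genes and a test on the reads. Added after the data were seen were a GC and length correction from GENCODE M21 transcripts, TMM from all genes, and removal of Mki67 or of overlapping genes.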

Additional observations from a re-analysis of the deposited data

How the results depend on the processing

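The member median stayed between 0.69 and 0.73 across 14 alternatives, the count past 1.5-fold between 22 and 28 and the count past 2-fold between 4 and 7, with the lowest counts from the 31 members that overlap no other gene. The median of all genes lay between -0.0042 and 0.030. The planned GC correction from a genome was not run, and transcripts took its place. Under that GC and length correction, the median of Cenpe and Cenpf moved to 0.88, the ratio of Mki67 to 1.03 and the median of cohesin genes to 0.21. The ratio of Cenpb turned from -0.12 to 0.0026, and those of Incenp, Cenpf and Mad1l1 moved to 0.76, 0.80 and 0.35, outside their counting intervals. The cause was not tested. The other 308 values of lists and counts and 510 values of single genes and of the median of all genes stayed within their limits (counts within 1.5 times, ratios and list medians within the counting interval, the median of all genes within 0.1). Many of these could move little, since filters leave a gene's ratio unchanged and scalings shift all genes by nearly the same amount. With counts halved, for read ends counted singly, the lower bound was above 0 for 38 members in place of 39, Cenpc1 being the one lost, and 0 members stood above Mki67 in place of 2. Below Mki67 stood 24 members with counts halved and 30 with the GC and length correction, in place of 25. No paired analysis was possible because each group has 1 library.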
